A study of Mus musculus with 12 samples.

Results

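The p53 pathway target genes described here are a list of 36 genes: *Trp53*, which encodes the transcription factor p53, with genes that p53 is known to switch on and regulators of p53. They were chosen by name and matched by gene symbol to the rows of the count table. Of the 36 names, 35 were found among 42450 genes, and *Dcxr2* matched no symbol. All 35 passed the filter on low counts that left 19410 genes for testing. PolyA+ RNA was sequenced from E14tg2a.4, a single male mouse embryonic stem cell (ESC) line, after small interfering RNA (siRNA) depletion of *Srrm2*, which encodes a protein of nuclear speckles and the spliceosome (Srrm2-KD), or after siRNA against firefly luciferase as control (Gl2-KD). All groups were wild type, received 50 nM siRNA and were kept in serum-free ESGRO medium with LIF, the cytokine that maintains ESC self-renewal. Cells were collected at 24 h, or were transfected again with the same siRNA and collected at 72 h, so that length of culture, number of transfections and cell density cannot be told apart in the time comparisons. There were 3 libraries in each of 4 groups, numbered by experiment, and libraries of the same number came from the same experiment.

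p53 is kept at a low level by the ubiquitin ligase Mdm2 and by Mdm2's relative Mdm4. DNA damage and other stresses free p53 from this control, mostly through changes to the protein rather than to its mRNA. p53 then binds paired half-sites in DNA and activates genes that halt the cell cycle, start apoptosis, repair DNA and, through *Mdm2*, restrain p53 itself. Mouse ESCs cycle rapidly with a weak G1 checkpoint and hold sizeable amounts of p53. No protein was measured here.

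The libraries held 73933096 to 153343725 estimated counts. Levels are given as CPM, the counts of a gene relative to the TMM-scaled library size. *Srrm2* had 449 to 911 CPM in Gl2-KD and 154 to 517 CPM in Srrm2-KD at 24 h, and 442 to 962 CPM and 182 to 461 CPM at 72 h. The fitted level left was 43.0% at 24 h and 44.6% at 72 h. These reductions missed the threshold across all genes (edgeR adjusted p = 0.0663 and 0.0991). The authors' own edgeR fit, with the RNA processing day as covariate, called *Srrm2* lower at both times, and other genes at 72 h. The 8 ESC markers, including *Pou5f1* and *Nanog*, summed to 4372 to 6853 CPM. The 6 markers of feeder fibroblasts summed to 7.31 to 25.6 CPM, the 6 of primitive endoderm to 2.23 to 4.80 CPM and the 5 of trophectoderm to 3.41 to 21.5 CPM. Below 1 CPM in every library were 3 of each list: *Col1a2*, *Col3a1* and *Postn* of the first, *Gata6*, *Sox17* and *Pdgfra* of the second, and *Cdx2*, *Elf5* and *Hand1* of the third. In bulk RNA, fewer expressing cells and less RNA per cell cannot be told apart.

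The promoters of 3 of the genes that recur below are shown because each holds at least 1 match to the half-site that p53 binds in pairs; only the *Cdkn1a* window holds a pair. Each line gives the 250 bases before an annotated RefSeq start (GRCm38.p6), on the strand of the gene, with matches to the p53 half-site consensus in capitals.
Cdkn1a, chr17:29090729-29090978, plus strand: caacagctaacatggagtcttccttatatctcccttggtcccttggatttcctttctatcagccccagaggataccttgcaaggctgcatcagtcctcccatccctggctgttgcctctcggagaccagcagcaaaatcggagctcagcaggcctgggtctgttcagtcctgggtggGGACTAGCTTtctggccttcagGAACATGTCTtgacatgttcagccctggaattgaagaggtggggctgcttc
Mdm2, chr10:117710759-117711008, minus strand: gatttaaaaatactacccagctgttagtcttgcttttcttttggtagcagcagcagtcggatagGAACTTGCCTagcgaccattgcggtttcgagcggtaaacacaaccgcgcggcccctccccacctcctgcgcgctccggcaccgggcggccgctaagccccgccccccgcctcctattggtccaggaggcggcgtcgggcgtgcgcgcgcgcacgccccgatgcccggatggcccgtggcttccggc
Ccng1, chr11:40755287-40755536, minus strand: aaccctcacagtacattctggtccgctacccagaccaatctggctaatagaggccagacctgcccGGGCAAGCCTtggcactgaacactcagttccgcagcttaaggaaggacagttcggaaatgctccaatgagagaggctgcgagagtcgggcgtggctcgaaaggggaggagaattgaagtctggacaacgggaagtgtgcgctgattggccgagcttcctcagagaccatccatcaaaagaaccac

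The *Cdkn1a* window held 2 half-sites, starting 73 and 51 bases before the start and separated by 12 bases. Only exact matches to the consensus were counted, and near matches are not marked. The window lies at the upstream start of the gene, 2790 bases before the other annotated start, whose window held no match. In *Mdm2* and *Ccng1* a single half-site began 186 and 185 bases before the start. The windows of *Mdm4* and *Bbc3*, which also recur below, held no match. Promoter windows were at hand for 27 of the genes (37 windows), of which 10 windows (27.0%) held a half-site, against 7.13% of 32851 windows of all genes. A pair of half-sites no more than 13 bases apart was in 21 windows in all (0.0639%), and the *Cdkn1a* window was the only one of the listed genes. The pattern reads the same on both strands. A match is a sequence of letters and was not tested for binding.

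Corrected for summed exon length and averaged over all libraries, *Bax* had the highest level of the 35 genes and *Trp53* came next, with *Ccng1*, *Gtse1* and *Aen* after them. In Gl2-KD at 24 h these stood at 135, 95.5, 60.2, 48.6 and 33.1 CPM per kb. *Mdm2* and *Mdm4* were at 17.2 and 17.5 CPM per kb in that group and *Cdkn1a* at 7.85. The lowest were *Dglucy* (0.695), *Rrm2b* (0.824) and *Fas* (0.0629). The pore-forming *Bax* and p53 itself were at the top of the range and the death receptor *Fas* was close to 0.

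The time comparison asks how the pathway differed between the 72 h and the 24 h cells of one siRNA. In Gl2-KD, *Mdm2*, *Mdm4*, the apoptosis inducer *Bbc3* (Puma) and the stress protein gene *Trp53inp1* rose, by 0.52 to 0.81 on the log2 scale. These were 4 of 35 genes called by the quasi-likelihood test of edgeR (p-values adjusted by Benjamini-Hochberg over all genes tested, threshold 0.05), against 0.747% of all genes called higher. None of the 35 was called lower, where 0.706% of all genes were. At an unadjusted p below 0.05, 18 of the 35 (51.4%) were higher and 0 lower, against 9.59% and 7.21% of all genes. The median log2 fold change was 0.42 for the 35 genes and 0.02 for all genes tested, and 30 of the 35 fold changes were positive. In 22 genes the 72 h level was above the 24 h level in 3 of 3 experiments (20.2% of all genes), and in 9 all 3 libraries at 72 h lay above all 3 at 24 h (3.91% of all genes).

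These 4 calls depended on single libraries, as did the calls over all genes. None of the 35 genes was called without any 1 of the 3 Gl2-KD libraries at 24 h, without the Gl2-KD library of experiment 2 or 3 at 72 h, or without experiment 2, although 15 to 17 were then higher at an unadjusted p below 0.05 (5.90% to 7.82% of all genes), and 11 without experiment 2 (3.94% of all genes). There was 1 call without the Srrm2-KD library of experiment 2 at 24 h, and there were 2 without the 72 h Gl2-KD library of experiment 1, the 72 h Srrm2-KD library of experiment 2, or experiment 3, and 7 without the 72 h Srrm2-KD library of experiment 1. Over all genes, the 282 calls went to between 0 and 81 in the fits with no call among the 35, to 101 in the fit with 1, to between 87 and 269 in those with 2, and to 276 in that with 7. The median of the 35 stayed between 0.32 and 0.47 in all of these fits.

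**Figure D1:**
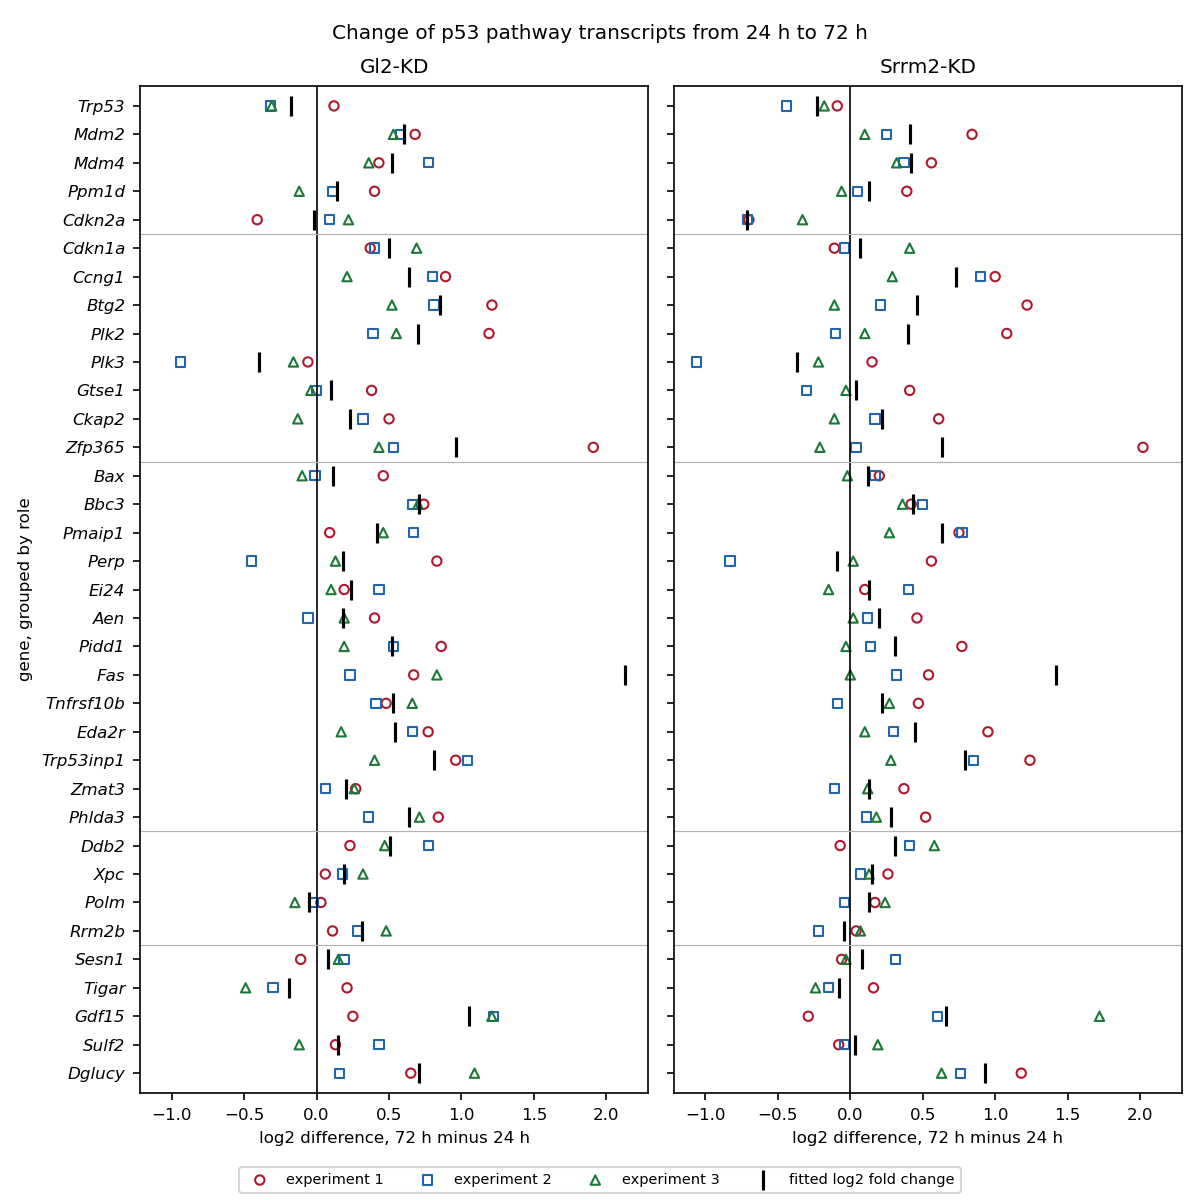
Difference in log2(CPM + 0.5) between 72 h and 24 h for the 35 genes, grouped by role, in Gl2-KD (left) and Srrm2-KD (right). Coloured symbols are the 3 experiments and the black bar is the fitted log2 fold change; in Gl2-KD 30 of 35 bars lie right of 0, and in Srrm2-KD 29 do. The fitted bar of *Fas*, a gene near 0 counts, lies outside its points because these carry a pseudocount.

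Among p53 and its regulators, the inhibitors *Mdm2* and *Mdm4* rose in Gl2-KD. *Trp53* (chr11:69580359-69591873, plus strand) had 374, 469 and 316 CPM at 24 h and 405, 375 and 255 CPM at 72 h in experiments 1, 2 and 3 of Gl2-KD. The groups overlapped, and the level was higher at 72 h in experiment 1 and lower in the other two. The log2 fold change was -0.18 ± 0.11 (SE, n = 3 per group; edgeR adjusted p = 0.477), with an approximate 95% interval of -0.39 to 0.04.

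*Mdm2* (chr10:117688875-117710758, minus strand) had 85.7, 93.7 and 82.9 CPM at 24 h and 137, 140.3 and 120.0 CPM at 72 h in Gl2-KD. Every 72 h library lay above every 24 h library, and the log2 fold change was 0.60 ± 0.13 (SE; edgeR adjusted p = 0.0488). *Mdm4* (chr1:132959484-133030561, minus strand), whose product binds and masks the activation domain of p53, had 347, 184 and 246 CPM at 24 h and 469, 313 and 315 CPM at 72 h. The groups overlapped because experiment 1 was high at both times, but each experiment was higher at 72 h, and the log2 fold change was 0.52 ± 0.10 (SE; edgeR adjusted p = 0.032). *Ppm1d*, the phosphatase Wip1 that switches p53 signalling off, ranged from 22.3 to 28.2 CPM at 24 h and from 25.9 to 30.4 CPM at 72 h (log2 fold change 0.14 ± 0.13). *Cdkn2a*, which encodes Arf, an inhibitor of Mdm2, and an inhibitor of the kinases Cdk4 and Cdk6, stood at 2.96, 4.94 and 4.45 CPM and then at 2.10, 5.30 and 5.25 CPM, with no common direction (log2 fold change -0.02 ± 0.22).

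Of the 8 genes of cell cycle and growth, 7 had positive fold changes in Gl2-KD and 5 an unadjusted p below 0.05, and none was called. *Cdkn1a* (chr17:29090976-29100727, plus strand), which encodes the cyclin-dependent kinase inhibitor p21, had 21.02, 26.5 and 36.2 CPM at 24 h and 27.4, 35.0 and 58.5 CPM at 72 h. It was higher at 72 h within each experiment while the groups overlapped, with a log2 fold change of 0.50 ± 0.15 (SE; edgeR adjusted p = 0.127). *Ccng1* (chr11:40748552-40755311, minus strand), cyclin G1, had 192, 212 and 231 CPM at 24 h and 356, 369 and 268 CPM at 72 h. All 72 h libraries were above all 24 h libraries, and the differences of 0.89 and 0.80 in experiments 1 and 2 were larger than that of 0.21 in experiment 3. Its log2 fold change was 0.64 ± 0.15 (SE; edgeR adjusted p = 0.0642).

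*Btg2*, an antiproliferative regulator of mRNA decay, had 16.2, 31.0 and 32.4 CPM at 24 h and 38.2, 54.7 and 46.6 CPM at 72 h, without overlap (log2 fold change 0.85 ± 0.21; edgeR adjusted p = 0.0732). The polo-like kinase genes went apart: *Plk2* was at 13.8 to 29.4 CPM and then 32.1 to 38.6 CPM (0.70 ± 0.23), and *Plk3* at 14.3 to 22.0 CPM and then 11.3 to 15.2 CPM (-0.40 ± 0.23). *Zfp365* was at 10.3 to 17.7 CPM and then at 14.0 to 44.6 CPM (0.96 ± 0.39), with a difference of 1.91 in experiment 1 against 0.53 and 0.43 in the others. The mitotic microtubule proteins *Gtse1* and *Ckap2* had log2 fold changes of 0.10 ± 0.15 and 0.23 ± 0.14.

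The 13 genes of death receptors and apoptosis all had positive fold changes in Gl2-KD (0.11 to 2.13, median 0.52), and 8 had an unadjusted p below 0.05. Among the genes acting at the mitochondrion, *Bbc3* (chr7:16308393-16318205, plus strand) had 22.1, 36.5 and 47.6 CPM at 24 h and 37.4, 58.0 and 77.8 CPM at 72 h. Experiment 1 was lowest and experiment 3 highest at both times and the groups overlapped. Within the experiments the differences were 0.74, 0.66 and 0.70, and the log2 fold change of 0.71 ± 0.11 had the smallest p of the 35 genes (SE; edgeR adjusted p = 0.0214). *Pmaip1* (Noxa), like Puma a BH3-only protein that neutralises survival proteins of the Bcl2 family, had 11.6, 7.66 and 15.4 CPM and then 12.3, 12.5 and 21.4 CPM. The groups overlapped, and the log2 fold change was 0.42 ± 0.16 (edgeR adjusted p = 0.228). *Bax*, the pore former on which these proteins act, was at 128 to 258 CPM and then 176 to 256 CPM (0.11 ± 0.11), and was higher at 72 h in 1 of 3 experiments.

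*Trp53inp1* (chr4:11156431-11174379, plus strand), a nuclear and autophagy protein that promotes p53 activity, had 158, 99.9 and 148 CPM at 24 h and 309.6, 206 and 197 CPM at 72 h. The groups did not overlap, and the log2 fold change was 0.81 ± 0.17 (SE; edgeR adjusted p = 0.0425). *Phlda3*, an inhibitor of the survival kinase Akt, had 17.8, 45.5 and 35.8 CPM and then 32.3, 58.3 and 58.8 CPM, with experiment 1 lowest at both times (0.64 ± 0.14; edgeR adjusted p = 0.0552). *Tnfrsf10b*, the mouse receptor of the death ligand TRAIL, had 23.5, 24.5 and 26.1 CPM and then 33.1, 32.7 and 41.6 CPM. Its groups did not overlap (0.53 ± 0.12; edgeR adjusted p = 0.0614).

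*Eda2r*, a receptor of the ligand ectodysplasin A2, was at 35.5 to 53.7 CPM and then 48.4 to 91.9 CPM (0.54 ± 0.16), and *Pidd1*, a death domain protein that activates caspase-2, at 33.7 to 44.7 CPM and then 48.0 to 64.6 CPM (0.52 ± 0.17). The death receptor *Fas* was near the limit of detection. It had 0, 29 and 20 estimated counts at 24 h and 36, 43 and 94 at 72 h in experiments 1, 2 and 3, and the 0 allows up to 0.0343 CPM (3 counts). Its fitted log2 fold change of 2.13 ± 0.87 depends on how such counts are treated. *Perp*, *Ei24*, *Aen* and *Zmat3*, a membrane protein of desmosomes, an endoplasmic reticulum protein, an exonuclease and an RNA-binding zinc finger protein, had log2 fold changes of 0.18, 0.24, 0.18 and 0.20.

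Of the genes of DNA repair and nucleotide supply, *Ddb2*, which recognises ultraviolet damage, had 10.8 to 18.0 CPM at 24 h and 18.6 to 25.1 CPM at 72 h in Gl2-KD, without overlap (0.51 ± 0.15). Its locus overlaps *Acp2* on the other strand (9.69 CPM), and no source used here says whether strand was used in counting. *Xpc*, also of nucleotide excision repair, had 35.5 to 38.3 CPM and then 37.1 to 47.8 CPM (0.19 ± 0.09). *Rrm2b*, the p53-inducible subunit of ribonucleotide reductase, was at 6.58 to 9.19 CPM and then 8.10 to 9.93 CPM (0.31 ± 0.14), and shares its locus with a processed pseudogene on the same strand (1.01 CPM). *Polm*, DNA polymerase mu, differed by -0.05 ± 0.12.

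In the group of stress, metabolism and secreted proteins, the secreted stress factor *Gdf15* had 2.83, 2.35 and 5.47 CPM at 24 h and 3.47, 6.16 and 13.3 CPM at 72 h in Gl2-KD. The groups overlapped, and experiment 1 differed by 0.25 against 1.22 and 1.21 in the others (log2 fold change 1.05 ± 0.38; edgeR adjusted p = 0.191). *Dglucy*, a mitochondrial D-glutamate cyclase, had 3.75, 3.22 and 2.62 CPM and then 6.18, 3.66 and 6.14 CPM (0.71 ± 0.21; edgeR adjusted p = 0.118), the lowest 72 h value lying just under the highest at 24 h. The sestrin *Sesn1*, an inhibitor of mTORC1, the fructose bisphosphatase *Tigar* and the extracellular sulfatase *Sulf2* had log2 fold changes of 0.08, -0.19 and 0.15. *Sulf2* overlaps *Ncoa3* on the other strand (180 CPM).

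**Figure D2:**
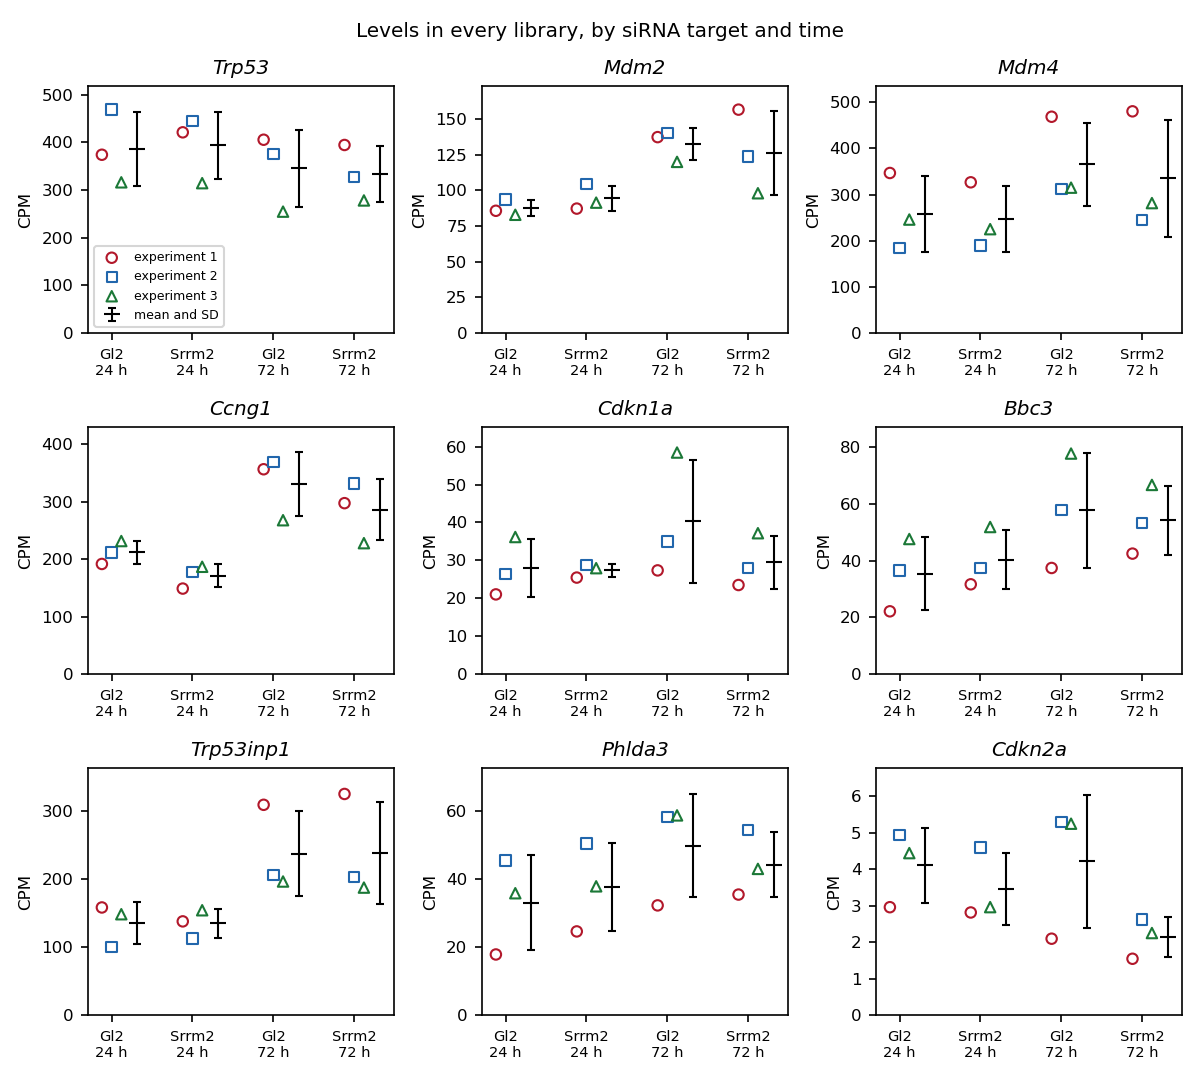
Levels in CPM of 9 genes of the list in each of the 12 libraries, by siRNA and time, with the mean and SD of each group (n = 3) beside the points. In *Mdm2*, *Ccng1* and *Trp53inp1* all Gl2-KD points at 72 h lie above all those at 24 h; in *Mdm4*, *Bbc3* and *Phlda3* the groups overlap but each Gl2-KD experiment is higher at 72 h; the mean of *Cdkn2a* is lowest in Srrm2-KD at 72 h.

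In Srrm2-KD, the same comparison of 72 h with 24 h gave 29 positive fold changes of 35 and a median of 0.22, against 0.00 for all genes tested. None of the 35 was called in edgeR's test, where 0.191% of all genes were called higher and 0.361% lower. At an unadjusted p below 0.05, 8 were higher and 1 lower, against 7.72% and 8.54% of all genes. Other tools made calls: DESeq2 called 6 of the 35 higher and 1 lower (2.54% and 2.89% of all genes), and limma with voom 3 higher (0.5% of all genes). Without experiment 3, edgeR called 2, and 90 of all genes. Without the 72 h Srrm2-KD library of experiment 1 the median of the 35 was 0.07, with 26 positive, and without experiment 1 it was 0.09, with 25 positive. In 11 genes every experiment was higher at 72 h (16.2% of all genes), and in 4 the libraries did not overlap (3.58% of all genes).

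*Ccng1* had the smallest p in Srrm2-KD, with 149, 177 and 187 CPM at 24 h and 297, 332 and 228 CPM at 72 h in experiments 1, 2 and 3. All 72 h libraries were higher (0.73 ± 0.15; edgeR adjusted p = 0.0645). *Trp53inp1* had 138, 112 and 154 CPM and then 326, 203 and 188 CPM, also without overlap (0.79 ± 0.17; edgeR adjusted p = 0.0649). *Dglucy* had 4.23, 3.83 and 4.55 CPM and then 10.2, 6.84 and 7.32 CPM, without overlap (0.93 ± 0.21; edgeR adjusted p = 0.0815). *Pmaip1* had 11.4, 11.2 and 18.2 CPM and then 19.6, 19.4 and 22.0 CPM, again without overlap (0.63 ± 0.16; edgeR adjusted p = 0.11).

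*Mdm4* had 326, 189 and 225 CPM at 24 h and 480.3, 245 and 281 CPM at 72 h in Srrm2-KD, and *Bbc3* 31.6, 37.5 and 51.8 CPM and then 42.5, 53.4 and 66.7 CPM. Both were higher in each experiment with overlapping groups (0.42 ± 0.10 and 0.43 ± 0.11; edgeR adjusted p = 0.0881 and 0.11). *Mdm2* had 87.2, 104 and 91.4 CPM and then 157, 124 and 98.0 CPM, a difference of 0.84 in experiment 1 against 0.25 and 0.10 in experiments 2 and 3 (0.41 ± 0.13; edgeR adjusted p = 0.158). *Cdkn1a* had 25.5, 28.8 and 27.9 CPM and then 23.5, 27.9 and 37.2 CPM, lower at 72 h in experiments 1 and 2 and higher in experiment 3 (0.07 ± 0.15; edgeR adjusted p = 0.867). *Cdkn2a* was the one gene lower at an unadjusted p below 0.05, with 2.82, 4.60 and 2.96 CPM at 24 h and 1.54, 2.63 and 2.25 CPM at 72 h. All its 72 h libraries were below all its 24 h libraries, as in 3.9% of all genes (-0.71 ± 0.23; edgeR adjusted p = 0.164). *Trp53* had 421, 445 and 314 CPM and then 394, 327 and 278 CPM (-0.23 ± 0.11; edgeR adjusted p = 0.332).

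The depletion of *Srrm2* itself was compared with the control siRNA at each time. At 24 h, none of the 35 genes was called and 0 had an unadjusted p below 0.05, against 0% of all genes called and 2.62% at the unadjusted threshold. DESeq2 and limma with voom also called 0 of the 35 (0.124% and 0.0103% of all genes). The median log2 fold change was 0.03, and 0.01 for all genes tested. For *Trp53* the difference was 0.02 ± 0.11 (approximate 95% interval -0.20 to 0.24), for *Mdm2* 0.11 ± 0.13 (-0.14 to 0.36) and for *Cdkn1a* 0.03 ± 0.15 (-0.27 to 0.32).

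The smallest p at 24 h was that of *Ccng1*, whose 3 Srrm2-KD libraries (149 to 187 CPM) lay below all 3 Gl2-KD libraries (192 to 231 CPM), with a log2 fold change of -0.31 ± 0.15 (edgeR adjusted p = 1.0). *Dglucy* was the gene whose 3 Srrm2-KD libraries (3.83 to 4.55 CPM) lay above the Gl2-KD libraries (2.62 to 3.75 CPM), at 0.40 ± 0.21. These were 1 of 35 genes below and 1 above, against 1.55% and 1.89% of all genes. *Bbc3* (0.22 ± 0.11), *Phlda3* (0.22 ± 0.14) and *Btg2* (0.37 ± 0.21) were higher in each of the 3 experiments with overlapping groups, and *Pmaip1* (0.25 ± 0.16) in 2 of 3. In Srrm2-KD at 24 h *Btg2* had 18.8, 42.7 and 42.6 CPM and *Phlda3* 24.6, 50.4 and 37.9 CPM.

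At 72 h, none of the 35 genes was called, as with all genes (0%), *Srrm2* included. At an unadjusted p below 0.05, 2 were higher and 3 lower, against 5.01% and 7.86% of all genes. DESeq2 called 1 of the 35 lower, *Cdkn2a* (1.77% of all genes lower), and limma with voom 0 (0.0206% of all genes). The median log2 fold change was -0.03, and -0.02 for all genes tested. Without the Srrm2-KD library of experiment 1 at 72 h the median of the 35 was -0.24, and -0.05 for all genes. Then 8 of the 35 were lower at an unadjusted p below 0.05, against 9.77% of all genes. Without the Srrm2-KD library of experiment 3 at 72 h the median of the 35 was 0.03, and -0.01 for all genes.

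*Cdkn2a* had 2.10, 5.30 and 5.25 CPM in Gl2-KD and 1.54, 2.63 and 2.25 CPM in Srrm2-KD at 72 h. It was lower in Srrm2-KD in each experiment, by 0.34, 0.89 and 1.06 on the log2(CPM + 0.5) scale, while the groups overlapped through the low control of experiment 1 (log2 fold change -0.92 ± 0.23; edgeR adjusted p = 0.155, DESeq2 adjusted p = 0.00507). It was also called in edgeR when each pair of Srrm2-KD and Gl2-KD libraries formed a block (adjusted p = 0.0394), where 2.53% of all genes were called lower, but not when the 72 h libraries were fitted alone with the experiment as block (edgeR adjusted p = 0.0736), where 1.3% were.

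*Tnfrsf10b* had 33.1, 32.7 and 41.6 CPM in Gl2-KD and 31.0, 22.3 and 29.4 CPM in Srrm2-KD at 72 h. This was the 1 gene of 35 whose Srrm2-KD libraries all lay below the controls, against 3.67% of all genes (-0.38 ± 0.12; edgeR adjusted p = 0.258). *Cdkn1a*, at 27.4, 35.0 and 58.5 CPM in Gl2-KD and 23.5, 27.9 and 37.2 CPM in Srrm2-KD, was lower in each experiment with overlapping groups (-0.41 ± 0.15; edgeR adjusted p = 0.299). *Rrm2b* had 9.93, 8.10 and 9.71 CPM in Gl2-KD and 8.67, 6.45 and 7.60 CPM in Srrm2-KD (-0.29 ± 0.14; edgeR adjusted p = 0.424).

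Higher at 72 h in Srrm2-KD were *Dglucy*, at 10.2, 6.84 and 7.32 CPM against 6.18, 3.66 and 6.14 CPM, and *Pmaip1*, at 19.6, 19.4 and 22.0 CPM against 12.3, 12.5 and 21.4 CPM. For *Dglucy* the groups did not overlap, as in 2.99% of all genes (0.62 ± 0.21; edgeR adjusted p = 0.271). For *Pmaip1* the groups overlapped, since experiment 3 differed by 0.04 only (0.46 ± 0.16; edgeR adjusted p = 0.286). *Gdf15* had 3.47, 6.16 and 13.3 CPM in Gl2-KD and 2.52, 3.08 and 8.18 CPM in Srrm2-KD (-0.75 ± 0.38; edgeR adjusted p = 0.437). *Trp53* differed by -0.03 ± 0.11 (interval -0.25 to 0.18) and *Mdm2* by -0.08 ± 0.13 (-0.33 to 0.17).

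**Figure D3:**
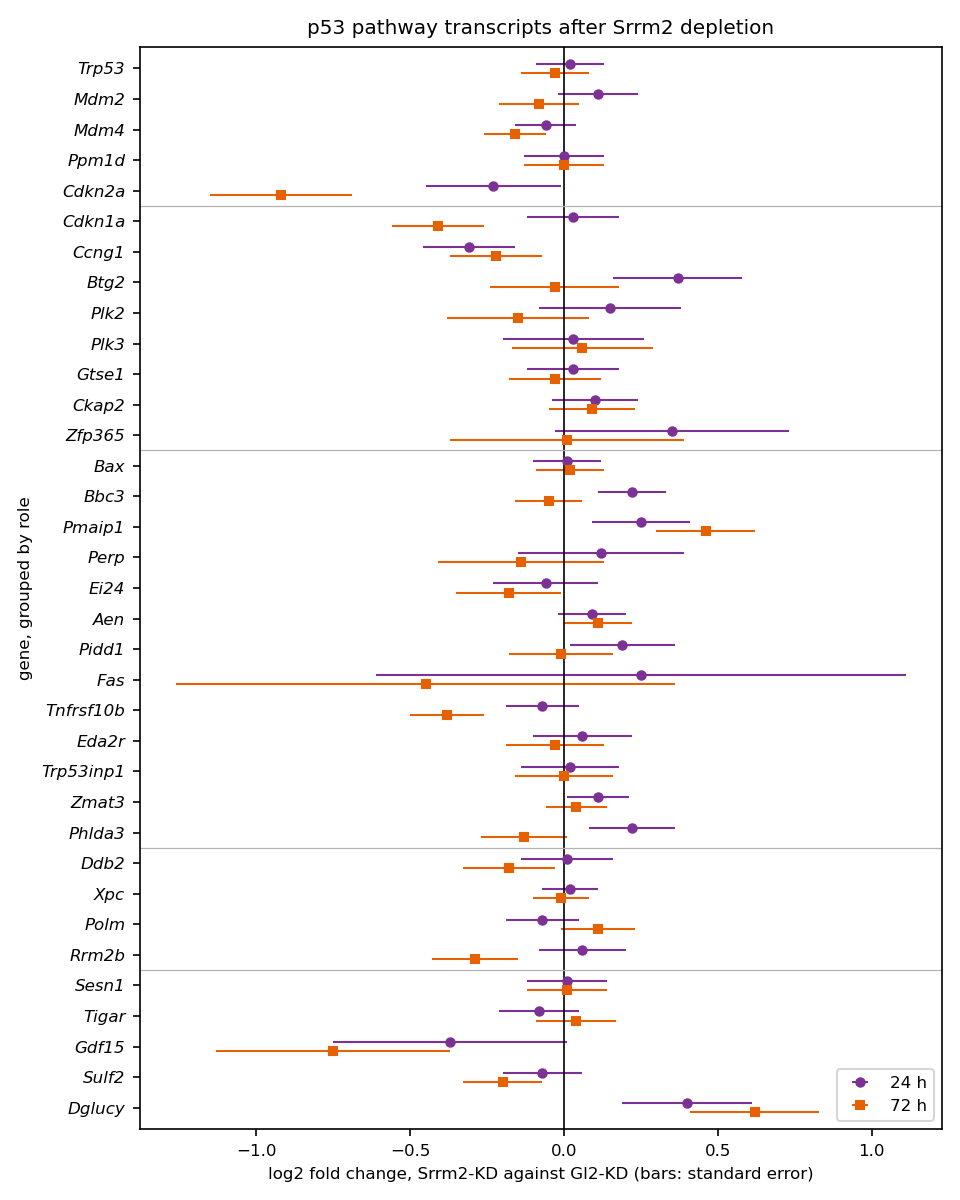
Fitted log2 fold change of Srrm2-KD against Gl2-KD with its standard error at 24 h (circles) and 72 h (squares) for the 35 genes, grouped by role. None was called at either time; the most negative value is that of *Cdkn2a* at 72 h (-0.92) and the most positive that of *Dglucy* at 72 h (0.62).

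Averaged over both times, 0 of the 35 genes were called, against 0.067% of all genes. At an unadjusted p below 0.05, 2 were higher, *Dglucy* (0.51 ± 0.15) and *Pmaip1* (0.35 ± 0.12), and 3 lower, *Cdkn2a* (-0.58 ± 0.16), *Tnfrsf10b* (-0.22 ± 0.09) and *Ccng1* (-0.26 ± 0.11), against 5.72% and 7.85% of all genes. DESeq2 called *Cdkn2a* and *Dglucy* (3.78% of all genes), and edgeR with each Srrm2-KD and Gl2-KD pair as a block called these and *Ccng1* (5.79% of all genes). The change of the siRNA effect between the times was tested as a contrast of its own. None of the 35 was called and 0 had an unadjusted p below 0.05, against 0% and 1.64% of all genes, and DESeq2 and limma with voom called 0 (0.0103% and 0% of all genes). *Cdkn2a* had the smallest p, at -0.69 ± 0.32 (edgeR adjusted p = 1.0), followed by *Cdkn1a* at -0.44 ± 0.21. This contrast is also the difference between the time changes of both siRNAs, so no gene of the list was called as changing differently with time in Gl2-KD and Srrm2-KD. Of its 35 values 26 were negative, with a median of -0.10 beside -0.02 for all genes tested. The comparisons share libraries, and no correlation between them was computed.

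The experiments differed in their levels of several genes across all 4 groups. *Mdm4*, *Ei24*, *Zmat3* and *Sulf2* were higher in all 4 libraries of experiment 1 than in all 8 others, and *Bax* and *Phlda3* lower, against 16.7% and 13.7% of all genes. *Mdm4* averaged 405 CPM in experiment 1 against 249.7 CPM over experiments 2 and 3, and *Zmat3* 176 against 111 CPM. *Phlda3* averaged 27.5 CPM against 48.0 CPM, and *Bax* 155 against 251 CPM. In experiment 2, *Bax* and *Aen* were above all other libraries (1.45% of all genes), and in experiment 3 *Trp53* and *Polm* were below (2.7% of all genes). The 4 libraries of an experiment are not replicates of it, so these counts are descriptions. What differed between the experiments was not tested.

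**Figure D4:**
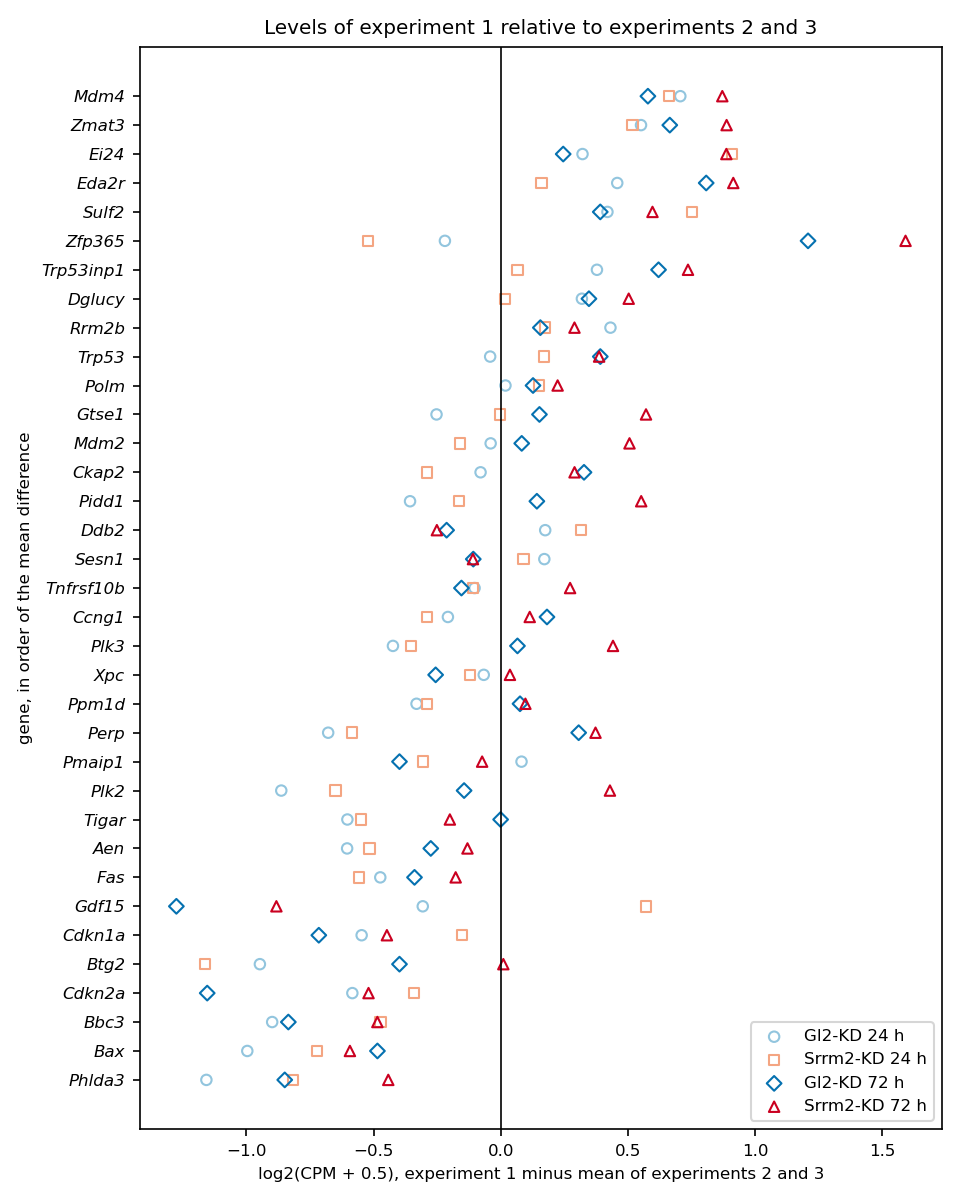
Level in experiment 1 minus the mean of experiments 2 and 3 in log2(CPM + 0.5), for the 35 genes ordered by its mean over the 4 groups; each symbol is 1 group. *Mdm4* and *Zmat3* lie to the right of 0 in all 4 groups and *Phlda3* and *Bax* to the left, and *Zfp365* lies to the left at 24 h and to the right at 72 h.

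Other genes of the pathway were read from 5 further lists. Of 35 further p53 targets, 5 rose from 24 h to 72 h in Gl2-KD: *Apaf1* (0.67 ± 0.12), the scaffold of the apoptosome, *Polk* (0.90 ± 0.12), a translesion DNA polymerase, *Ercc5* (0.66 ± 0.10), a repair endonuclease, *Ephx1* (1.28 ± 0.16), an epoxide hydrolase, and *Psrc1* (0.55 ± 0.10), a spindle protein. The drug efflux pump *Abcb1a* fell (-0.59 ± 0.12). The called shares of all genes were 0.747% higher and 0.706% lower. At an unadjusted p below 0.05, 12 of the 35 were higher and 4 lower, against 9.59% and 7.21% of all genes. In Srrm2-KD, *Polk* (0.67 ± 0.12) and *Ephx1* (0.85 ± 0.16) were called higher (edgeR adjusted p = 0.0467 and 0.0485), against 0.191% of all genes. *Ephx1* had a mean of 10.3 CPM at 24 h and 24.2 CPM at 72 h in Gl2-KD. At 72 h, 1 of these 35 was higher and 5 lower in Srrm2-KD than in Gl2-KD at an unadjusted p below 0.05, against 5.01% and 7.86% of all genes, with none called. The smallest p was that of *Sfn*, the cell cycle inhibitor 14-3-3 sigma, at a mean of 63.0 CPM in Gl2-KD and 36.5 CPM in Srrm2-KD (-0.81 ± 0.15; edgeR adjusted p = 0.124).

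Of 16 genes that p53 lowers through p21 and the DREAM repressor complex, 0 were called with time in either siRNA, and 0 had an unadjusted p below 0.05. For the control siRNA, 0.747% of all genes were called higher and 0.706% lower. For the *Srrm2* siRNA these shares were 0.191% and 0.361%. The unadjusted threshold was passed with time by 9.59% of all genes as higher and 7.21% as lower for the control siRNA. For the *Srrm2* siRNA it was passed by 7.72% as higher and 8.54% as lower. Between the siRNAs at 72 h, *Aurkb* (-0.36 ± 0.11) and *E2f1* (-0.25 ± 0.10) were lower after *Srrm2* depletion at that unadjusted threshold. These were 2 of the 16, against 7.86% of all genes, with none called. Of 16 other cyclins, CDKs and CDK inhibitors, only the G1 kinase *Cdk6* was called. It was lower with time in both siRNAs (-0.53 ± 0.09 in Gl2-KD and -0.68 ± 0.09 in Srrm2-KD), against 0.706% and 0.361% of all genes called lower. At an unadjusted p below 0.05, 4 of these 16 were higher and 5 lower in Gl2-KD, against 9.59% and 7.21% of all genes. In Srrm2-KD 2 were higher and 6 lower, against 7.72% and 8.54% of all genes. None of 20 genes of the Bcl2 family and caspases was called in either time comparison, with 1 higher and 1 lower in Gl2-KD and 2 higher and 3 lower in Srrm2-KD at an unadjusted p below 0.05, beside the 9.59% and 7.21% of all genes in the control and 7.72% and 8.54% in Srrm2-KD. Of 18 tested kinases and cofactors upstream of p53, 0 were called in either time comparison, beside the called shares of all genes given above. At the unadjusted threshold 2 were higher and 1 lower in Gl2-KD, against 9.59% and 7.21% of all genes. In Srrm2-KD 4 were higher and 1 lower, against 7.72% and 8.54%. In Gl2-KD *Trp73*, the p53 relative, had the smallest p (1.17 ± 0.30; edgeR adjusted p = 0.0824).

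Some markers of other cell states also moved with time. In Gl2-KD, the 5 markers of cells resembling the 2-cell embryo summed to 3.72 to 16.0 CPM at 24 h and 1.89 to 2.22 CPM at 72 h. *Zscan4c*, *Zscan4d* and *Usp17lc* were called lower (0.706% of all genes), while *Tcstv1* and *Tcstv3* were below 1 CPM throughout. The trophectoderm list of 5 went from 4.36 to 9.85 CPM at 24 h to 8.15 to 21.5 CPM at 72 h. Of this list *Krt7* alone was called higher (0.747% of all genes), from a mean of 2.67 to 9.46 CPM. The median log2 fold change of the 5 in Gl2-KD was -0.12, so most of the list did not rise with the sum. In Srrm2-KD *Krt7* was called higher (0.191% of all genes) and *Zscan4d* lower (0.361%). The part of these cell states in the p53 pathway values was not tested.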

How the data were processed

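PolyA+ RNA from E14tg2a.4 cells was measured in 12 libraries. The estimated counts, 1 per gene and library, were made and deposited by the authors, who pseudo-aligned paired-end reads from a strand-marking kit with kallisto 0.46.1 to the mouse GENCODE M24 transcriptome. The values were not normalised for library size. The step from transcripts to genes is not stated in the text used here.

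In edgeR 4.0.16 (R 4.3.3), counts were rounded, low genes were removed by filterByExpr with a count of at least 10 and a total of at least 15, leaving 19410 of 42450 genes, and library sizes were scaled by TMM. All 12 entered 1 quasi-likelihood model (glmQLFit with legacy=TRUE, glmQLFTest) of siRNA and time point combined, blocked by the experiment number, in place of the RNA processing day that the authors used as covariate and that was not at hand. With group means removed, libraries of the same experiment correlated across genes at 0.281 to 0.747 (18 pairs), and libraries of different experiments at -0.628 to 0.231 (36 pairs), so the numbers pair the samples. The series' design describes the replicates as independent experiments. The common biological coefficient of variation was 0.22, and p-values measure the spread between these samples of 1 cell line. All SEs are those of the fit, and intervals cover 95% under a normal approximation. Differences within an experiment are of log2(CPM + 0.5). The method was tested on simulated data that held no differences between experiments, unlike these libraries.

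Symbols, positions and exon lengths came from GENCODE M21 (GRCm38), and promoters from RefSeq. The p53 half-site was searched by its consensus, and the search covers both strands. Values in every library are given for *Trp53*, *Cdkn1a*, *Mdm2* and *Ccng1*. For the comparisons at 24 h, at 72 h and over time in each siRNA, the compared libraries are given for the 6 genes lowest in unadjusted p. For the mean of both times and the difference between the times, these values are not all given. The genes, the further lists (upstream kinases and cofactors, further p53 targets, Bcl2 family and caspases, other cyclins and CDK inhibitors, DREAM targets) and the tests were chosen with earlier results of these data known. *Sfn*, *Trp73* and other genes named from the further lists were picked after their values were seen. Alternatives were DESeq2 1.42.0, limma 3.58.1 with voom, RLE factors, legacy=FALSE, other count filters, other blocks, and leaving out each library and experiment.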

Additional observations from a re-analysis of the deposited data

How the results depend on the processing

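In the 72 h against 24 h comparison of Gl2-KD, where 4 of the 35 genes and 282 of all genes were called, DESeq2 called 12 (1298 of all genes), RLE factors gave 2 (256), legacy=FALSE 7 (624) and no filter on low counts 7 (420). Leaving out a library or an experiment gave 0 to 7. In Srrm2-KD, where 0 of the 35 and 107 of all genes were called, DESeq2 called 7 (1053), limma with voom 3 (259), legacy=FALSE 3 (279), no filter 2 (212), at least 10 counts in every library 2 (176), and leaving out a library or an experiment gave 0 to 2. For Srrm2-KD against Gl2-KD, 0 were called at 72 h and 0 for the mean of both times, and leaving out libraries kept both at 0. DESeq2 called 1 and 2 (535 and 733 of all genes), and a block for each pair of libraries of the same experiment and time 1 and 3 (724 and 1124). At 24 h and for the difference between the times, 0 were called under every alternative run.

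The experiment number was the block. With no replicate block, 0 genes of the list, and 0 of all genes, were called in any comparison. For time in Gl2-KD, 7 of the 35 were then higher at an unadjusted p below 0.05, against 1.93% of all genes. The 4 calls of that comparison were lost without the block.

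Leaving out libraries moved the median log2 fold change of the list between -0.02 and 0.10 at 24 h, between -0.24 and 0.03 at 72 h, and between 0.32 and 0.47 for time in Gl2-KD. For time in Srrm2-KD it lay between 0.07 and 0.28. Some fold changes changed sign. Among these genes, the largest size in edgeR's fit of all 12 libraries was 0.18 for time in Gl2-KD and 0.63 for time in Srrm2-KD. For Srrm2-KD against Gl2-KD it was 0.37 at 24 h and 0.45 at 72 h. Over all alternatives, 7 of the 35 did so for time in Gl2-KD, 11 for time in Srrm2-KD, 22 for Srrm2-KD against Gl2-KD at 24 h, 22 at 72 h, and 21 each for the mean of both times and for the difference between the times. None of the 4 called genes and none of the 6 genes with the smallest p in each comparison did. At 24 h, *Cdkn1a* was at -0.03 with no replicate block and at -0.11 to 0.22 when libraries or experiments were left out, and *Trp53* at -0.09 to 0.12. At 72 h, *Trp53* lay at -0.13 to 0.06 and *Mdm2* at -0.30 to 0.04, and *Cdkn1a* for time in Srrm2-KD at -0.14 to 0.20. The causes of these changes were not tested. Depth limits *Fas*, which had 0 to 94 estimated counts. For the other genes, the parts of depth and of the spread between the 3 experiments were not tested.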
